A study of Homo sapiens with 12 samples.

Results

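Genes of the integrated stress response and the unfolded protein response were followed in U937, an established human cell line from a histiocytic lymphoma that resembles early monocytes, with and without the phorbol ester PMA, which pushes such cells to a macrophage-like state. The 46 genes were named by their roles in these pathways, and each was read from 1 probe set, the brightest on average over the 12 arrays among those annotated to that gene alone. Of the 46, 45 were measured in this way, of 19775 genes on the array; the probe set of SYVN1 is shared with another gene and was not used. Signals are log2 values, so a difference of 1 is a doubling.

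The study asked which genes ZXDC1 regulates while PMA acts on these cells. All cultures came from 1 line stably carrying a TRIPZ Tet-On cassette (clone V3THS-381738), which makes a hairpin RNA against ZXDC1/2 when doxycycline is present, and all were grown with puromycin. The 4 groups were PMA with doxycycline, PMA without it, vehicle with doxycycline and vehicle without it, each with 3 arrays that the labels call biological replicates 1 to 3. PMA was given at 100 nM and vehicle was 0.1% DMSO, for 3 days, and the doxycycline groups received 0.5 µg/mL daily for 4 days, of which 2 preceded the agent. These durations are as the labels give them and do not add up, and the labels do not settle which is meant. The vehicle group without doxycycline therefore still carried the cassette, and no untransduced line or other hairpin was analysed here.

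In the integrated stress response, kinases that sense different stresses phosphorylate the translation factor eIF2, which lowers general protein synthesis and favours translation of the transcription factor ATF4. ATF4 is best known for activating genes of amino acid synthesis and uptake, together with genes that end the response. The unfolded protein response starts in the endoplasmic reticulum (ER). Its sensors PERK, IRE1 and ATF6 detect misfolded proteins, and the factors XBP1 and ATF6 raise ER chaperones and the machinery that removes misfolded proteins. Secretory and phagocytic cells are known for a large ER and for use of this pathway during differentiation.

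Promoters of 3 of the genes are shown because they carry DNA elements through which these pathways are known to act. RefSeq windows of 250 bases before to 50 bases after the start (GRCh38.p14) were held for 42 of the 46 genes. The ER stress element was searched as CCAAT, 9 bases of any kind and CCACG; its second form as ATTGG, 1 base of any kind and CCACG; and the C/EBP-ATF response element as TGATG, 1 base of any kind and AA. Both strands were searched, no matches overlap in the windows shown, and they are in capitals. The HSPA5 window lies at chr9:125241294-125241593 on the minus strand, with an ER stress element at positions -66 to -48 from the start. That of HERPUD1 lies at chr16:56931892-56932191 on the plus strand and holds a C/EBP-ATF element on the reverse strand and, further on, the second form of the ER stress element. That of ASNS lies at chr7:97872359-97872658 on the minus strand and holds a C/EBP-ATF element at positions -68 to -61.
HSPA5: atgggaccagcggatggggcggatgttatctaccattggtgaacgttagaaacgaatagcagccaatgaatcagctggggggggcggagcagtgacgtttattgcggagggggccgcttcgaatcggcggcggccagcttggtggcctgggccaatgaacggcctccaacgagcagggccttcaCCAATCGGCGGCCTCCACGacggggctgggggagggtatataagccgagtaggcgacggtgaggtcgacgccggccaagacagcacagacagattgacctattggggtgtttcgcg
HERPUD1: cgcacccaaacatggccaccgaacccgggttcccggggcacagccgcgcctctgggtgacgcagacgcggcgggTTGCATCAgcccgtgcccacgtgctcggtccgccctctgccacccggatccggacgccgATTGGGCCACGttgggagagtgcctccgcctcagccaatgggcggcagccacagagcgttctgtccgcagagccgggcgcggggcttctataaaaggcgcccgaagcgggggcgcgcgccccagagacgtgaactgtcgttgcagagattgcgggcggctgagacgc
ASNS: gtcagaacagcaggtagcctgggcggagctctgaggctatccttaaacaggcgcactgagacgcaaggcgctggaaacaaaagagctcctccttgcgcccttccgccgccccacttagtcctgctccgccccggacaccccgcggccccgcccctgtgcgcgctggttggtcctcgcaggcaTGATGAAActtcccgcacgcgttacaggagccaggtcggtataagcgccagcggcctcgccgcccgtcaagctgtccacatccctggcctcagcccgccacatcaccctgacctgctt

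The ER stress element was found for 7 of the 42 genes: XBP1 and 6 of 16 genes of ER chaperones and degradation (37.5%: HSPA5, HSP90B1, CALR, CANX, PDIA6 and CRELD2). It was found for 0 of 14 ATF4 targets, and for 0.0916% of all 27305 genes with a window. Its second form was found for 3 of the 16 (SDF2L1, HYOU1 and HERPUD1) and for 0.0696% of all genes. The C/EBP-ATF element was found for 4 of 14 ATF4 targets (28.6%: ASNS, SLC3A2, SLC7A1 and CHAC1), against 4.46% of all genes, and also for PPP1R15B, CEBPG and HERPUD1. A match is a description of these windows and not a measured binding site. The genes were named by their roles in pathways known to act through these elements, so the shares do not test an enrichment.

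The arrays had median signals of 5.16 to 5.22, and arrays of 1 group correlated at 0.99 to 0.997. ZXDC, the hairpin target, had signals of 7.39, 7.43 and 7.02 in PMA with doxycycline, against 7.96, 7.89 and 7.51 in PMA alone, a difference of -0.50 (SE 0.16, adjusted p = 0.613 by limma, exact permutation p = 0.1, the smallest that 3 against 3 arrays allow). In vehicle with doxycycline ZXDC had 7.16, 7.25 and 7.44, against 8.01, 7.63 and 7.69 in vehicle alone, a difference of -0.49 (adjusted p = 1, exact permutation p = 0.1). The groups did not overlap in either agent, where 5.9% of all genes were lower without overlap in PMA and 3.47% in vehicle. Same-numbered pairs differed by -0.56, -0.46 and -0.49 in PMA and by -0.85, -0.38 and -0.25 in vehicle. ZXDC has 6 probe sets, and those not used are not given here. The 4 arrays numbered 1 stood apart in the difference between the 3' and 5' control probe sets of ACTB, at 1.99 to 2.72 against 0.71 to 1.64 on the other 8. Of the monocyte and macrophage markers 8 of 10 were measured, of which ITGAM averaged 11.73 in PMA and 6.92 in vehicle, ITGAX 11.37 and 6.56, TYROBP 12.21 and 8.63, CSF1R 7.54 and 5.55, and CD14 6.07 and 3.86. LYZ, the brightest of the list by percentile, was lower in PMA, at 12.05 against 12.6 in vehicle. SPI1 (5.55 and 5.25) and FCGR1A (3.79 and 3.38) were higher in PMA, by less than the other markers differed. Test results for these markers are not given here. The T cell and epithelial markers lay at or below percentile 38.5 and 22.8 of all genes. B cell, erythroid and fibroblast markers lay at or below percentile 62.4. In bulk RNA such as this, fewer cells of a kind and less RNA per cell cannot be told apart.

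With PMA, 10 of 15 genes of ER protein folding and degradation rose, as did 4 of 7 sensors and phosphatase subunits and 3 of 6 genes of ATF4 and its partners, while 4 of 9 amino acid and one-carbon enzymes fell. Without doxycycline 21 of the 45 genes rose and 5 fell (46.7% and 11.1%), where limma called 31.7% of all genes, 12.7% higher and 18.9% lower (Benjamini-Hochberg adjusted p under 0.05 over all genes). The groups did not overlap for 24 genes that were higher and 6 that were lower with PMA, where 18.8% and 23.0% of all genes did so. The median difference of the 45 was 0.42, against 0.01 over all genes. In the ER lists 0 genes fell, and their median was 0.68. Among the 17 ATF4 targets 4 rose and 5 fell, with a median of -0.12, which was -0.23 without the vehicle array numbered 2, -0.07 without the one numbered 1 and -0.05 without the one numbered 3.

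**Figure D1:**
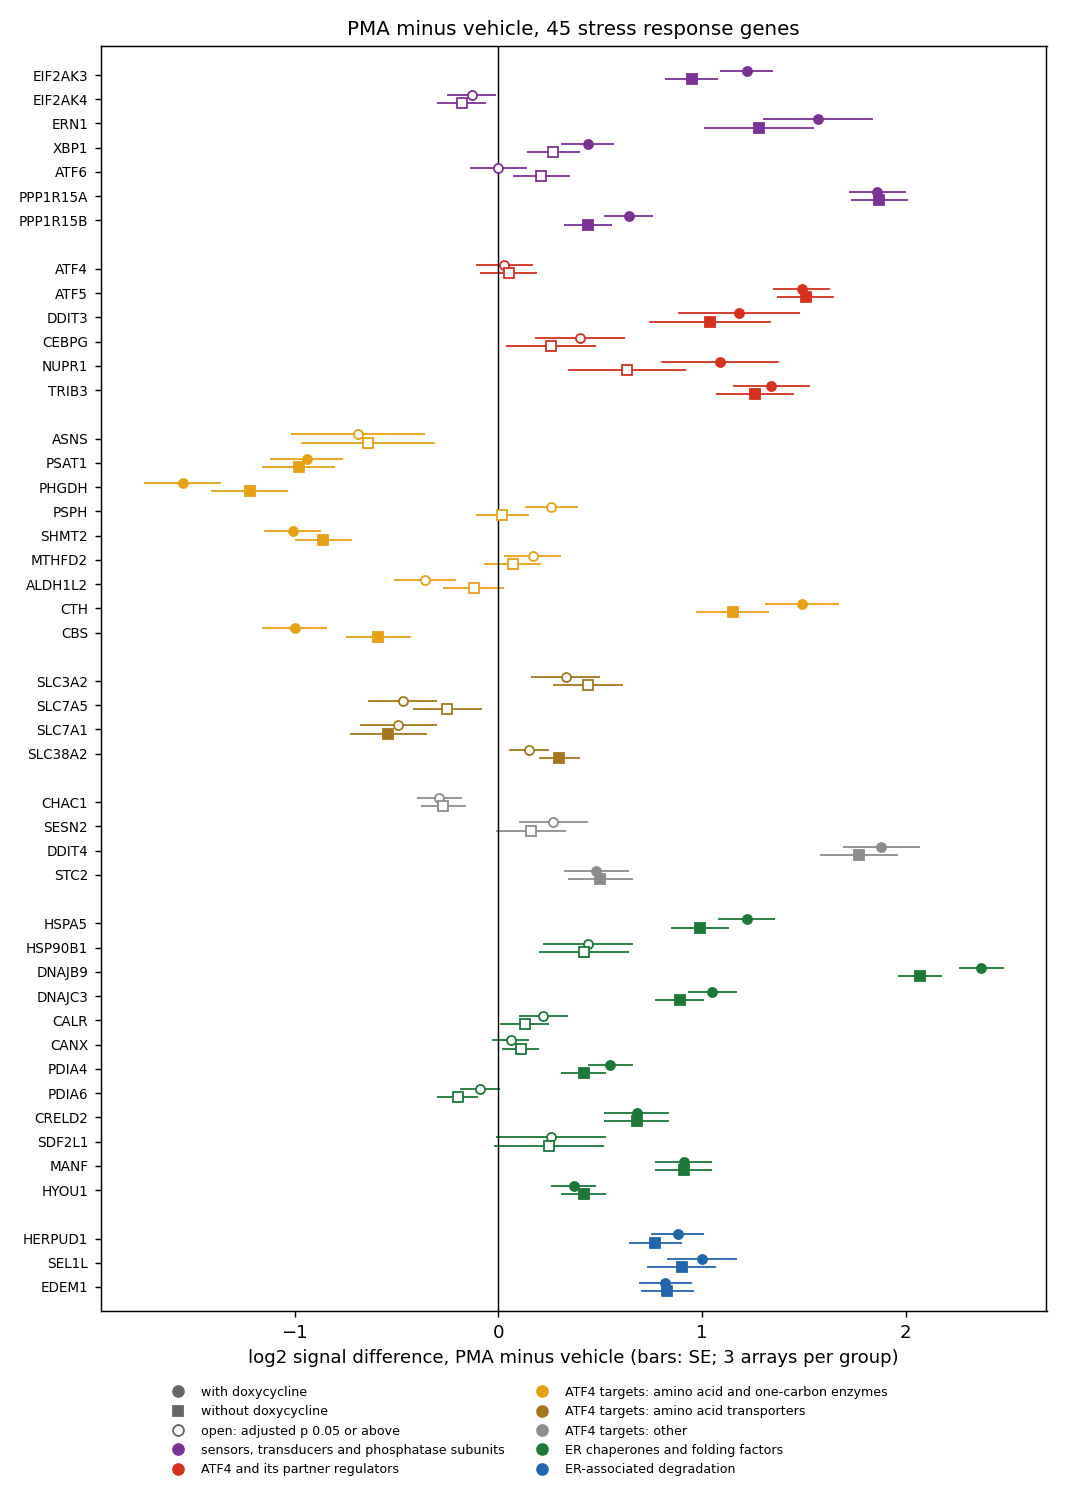
Difference in log2 signal between PMA and vehicle for the 45 measured genes, grouped by role, with circles for cultures with doxycycline and squares for cultures without it, bars for the SE (3 arrays per group) and filled points for an adjusted p under 0.05. DNAJB9 lies furthest to the right, at 2.37 with and 2.07 without doxycycline, and PHGDH furthest to the left, at -1.55 with and -1.22 without.

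Of the 7 sensors, transducers and phosphatase subunits, 4 rose with PMA without doxycycline (median 0.44). PPP1R15A, known as GADD34, guides a phosphatase to eIF2 and so ends the stress response; it had signals of 8.47, 8.41 and 8.3 in PMA, against 6.48, 6.41 and 6.67 in vehicle. The groups lay far apart for their spread, and the difference was 1.87 (SE 0.14, 3.66-fold, adjusted p = 1.62e-07). Its constitutive counterpart PPP1R15B had 10.92, 10.64 and 10.77 in PMA, against 10.18, 10.32 and 10.52 in vehicle, a smaller rise of 0.44 (SE 0.12, adjusted p = 0.011) that missed the threshold without the vehicle array numbered 1 (0.36, adjusted p = 0.0551). EIF2AK3 encodes PERK, the eIF2 kinase of the ER membrane, and had 8.77, 8.84 and 9.05 in PMA, against 7.76, 8.06 and 7.99 in vehicle. It rose by 0.95 (SE 0.13, 1.93-fold, adjusted p = 4.22e-05), with no overlap between the groups.

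ERN1 encodes IRE1, the ER kinase and nuclease that splices XBP1 mRNA. Its signals were 9.59, 8.86 and 8.36 in PMA and 7.96, 7.41 and 7.59 in vehicle, so the PMA arrays spread over more than 1 unit and still lay above every vehicle array. The rise was 1.28 (SE 0.27, adjusted p = 0.00194), while its other probe sets gave 0.12 and -0.14, and the mean over all of them gave 0.42 (adjusted p = 0.123). XBP1 itself, the factor made from the spliced mRNA, had 10.01, 9.75 and 10.09 in PMA and 9.57, 9.71 and 9.78 in vehicle (difference 0.27, adjusted p = 0.155), and these groups overlapped. These arrays do not tell spliced from unspliced XBP1 mRNA. ATF6, the sensor that is itself a membrane-bound transcription factor, differed by 0.21 (SE 0.14, adjusted p = 0.334), and EIF2AK4, the kinase GCN2 that senses amino acid shortage, by -0.18 (SE 0.12, adjusted p = 0.334).

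ATF4 mRNA did not pass the test, although 3 of the 6 genes in its list rose. ATF4 had 13.0, 12.49 and 12.54 in PMA, against 12.62, 12.57 and 12.71 in vehicle, and its difference of 0.05 had a 95% interval of -0.25 to 0.35 (adjusted p = 0.857). ATF4 is known to be controlled mainly through translation, which these arrays do not measure. ATF5, a related factor under the same kind of control, had 8.53, 8.39 and 8.22 in PMA, against 6.95, 6.85 and 6.81 in vehicle, and rose by 1.51 (SE 0.14, 2.85-fold, adjusted p = 1.61e-06). TRIB3, a pseudokinase that restrains ATF4, had 12.9, 12.26 and 11.95 in PMA, against 11.2, 11.1 and 11.01 in vehicle, and rose by 1.26 (SE 0.19, adjusted p = 0.000145). Neither gene's groups overlapped.

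DDIT3 encodes CHOP, the factor tied to cell death under lasting ER stress. It had 10.37, 9.29 and 9.36 in PMA, against 9.28, 8.39 and 8.23 in vehicle. In both groups the array numbered 1 was about 1 unit above the others, by 1.05 in PMA and 0.97 in vehicle, and the lowest PMA array, at 9.29, lay just above the highest vehicle array, at 9.28. The rise of 1.04 (SE 0.3, 2.06-fold, adjusted p = 0.0161) lost its call without the PMA array numbered 1 (0.69, adjusted p = 0.0676), without the vehicle array numbered 2 (0.92, adjusted p = 0.0693) or without the one numbered 3 (0.84, adjusted p = 0.0833). CEBPG, a dimer partner of ATF4, differed by 0.26 (SE 0.22, adjusted p = 0.429). NUPR1, a small stress-induced nuclear protein, differed by 0.63 (SE 0.29, adjusted p = 0.13), with overlapping groups. It was called once the fit held a block for the replicate number (adjusted p = 0.00291 by limma).

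**Figure D2:**
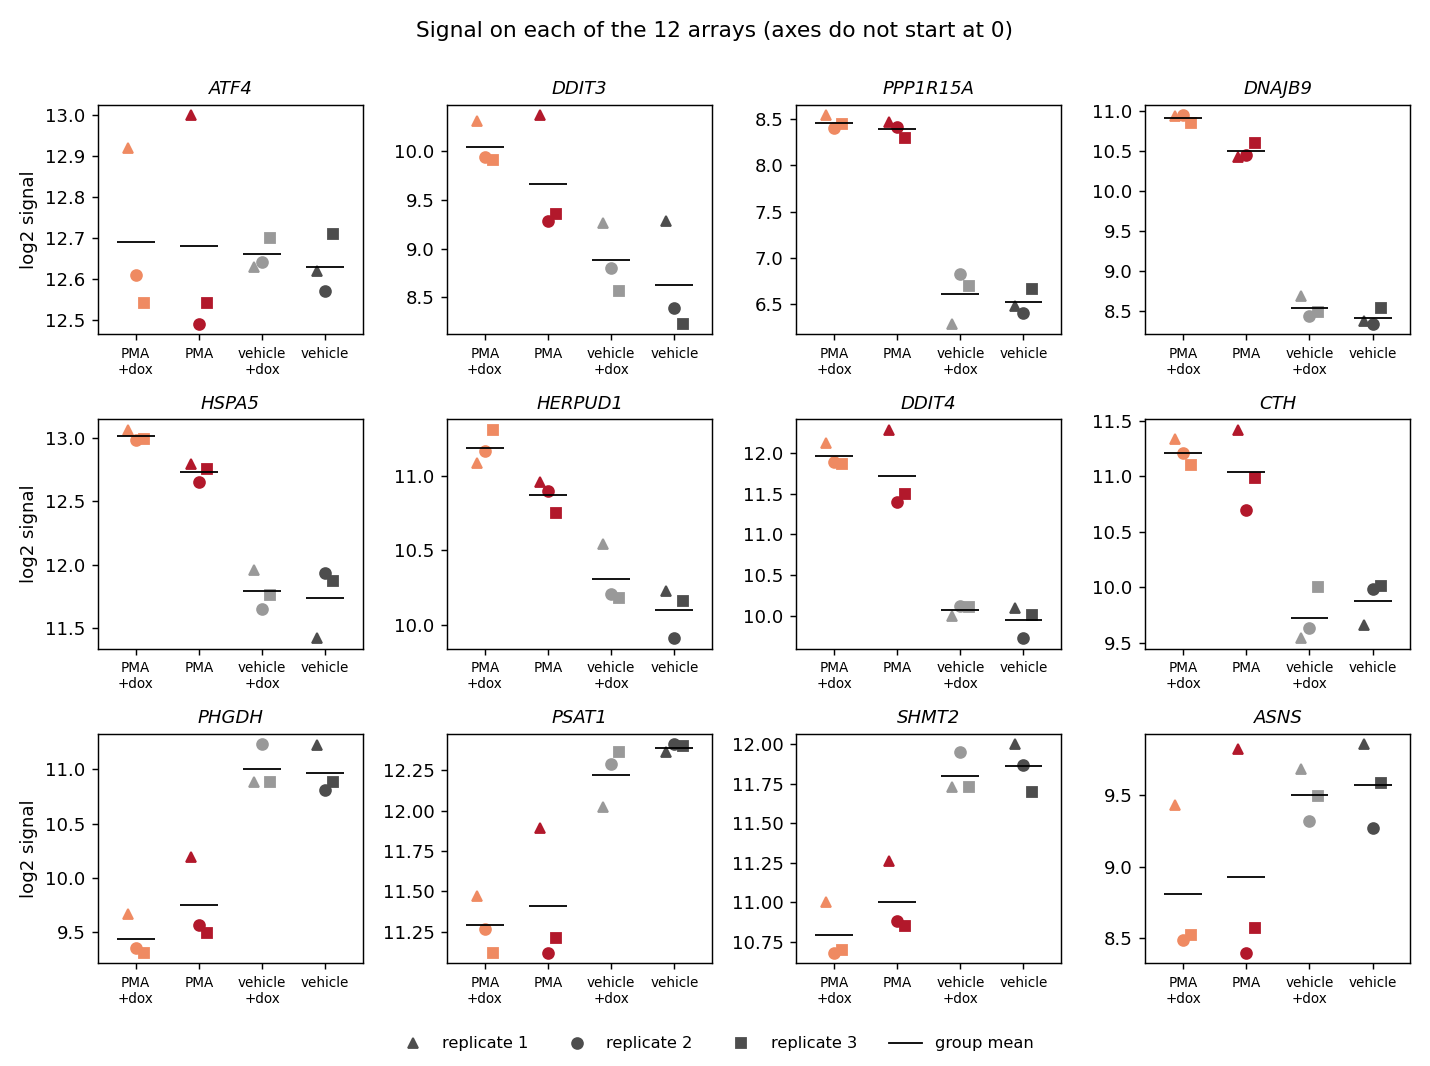
Log2 signal of 12 genes on every array, with columns for PMA with doxycycline, PMA, vehicle with doxycycline and vehicle, symbols for the replicate number and lines for the group mean; axes do not start at 0. PPP1R15A and DNAJB9 separate PMA from vehicle on all arrays, while the ATF4 arrays numbered 1 in PMA, at 12.92 with doxycycline and 13.0 without, lie above an otherwise shared range.

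Among the 9 enzymes under ATF4 control 4 fell and 1 rose with PMA without doxycycline, and the median was -0.59. PHGDH, PSAT1 and PSPH carry out the successive steps of serine synthesis. PHGDH had 10.19, 9.57 and 9.49 in PMA, against 11.22, 10.81 and 10.88 in vehicle, and fell by 1.22 on the log2 scale (SE 0.19, 2.32-fold lower, adjusted p = 0.000146). PSAT1 had 11.89, 11.12 and 11.21 in PMA, against 12.36, 12.41 and 12.4 in vehicle, and fell by 0.98 (SE 0.18, adjusted p = 0.000567). For both enzymes every PMA array lay below every vehicle array. PSPH had 9.6, 9.36 and 9.78 in PMA and 9.46, 9.57 and 9.66 in vehicle (difference 0.02, adjusted p = 0.931). Its other probe sets were called lower, at -0.89 and -0.73 (adjusted p = 0.00118 and 0.0026 by limma over all probe sets). Whether PSPH fell thus depends on the probe set.

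SHMT2, which feeds serine into mitochondrial one-carbon metabolism, had 11.26, 10.88 and 10.85 in PMA, against 12, 11.87 and 11.7 in vehicle, and fell by 0.86 (SE 0.14, adjusted p = 0.000235). MTHFD2, the next enzyme of that route, had 12.71, 12.25 and 12.2 in PMA and 12.32, 12.42 and 12.22 in vehicle, a difference of 0.07 (SE 0.14, adjusted p = 0.799). Neighbouring steps of 1 route thus gave different calls. ALDH1L2, also of mitochondrial one-carbon metabolism, was dim, at percentile 23.1 of all genes, and differed by -0.12 (adjusted p = 0.643).

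CBS and CTH are the consecutive enzymes of transsulfuration, which makes cysteine. CBS had 7.15, 7.1 and 6.8 in PMA, against 7.6, 7.58 and 7.64 in vehicle, and fell by 0.59 (SE 0.16, adjusted p = 0.00924). CTH had 11.42, 10.7 and 10.99 in PMA, against 9.66, 9.98 and 10.01 in vehicle, and rose by 1.15 (SE 0.18, 2.22-fold, adjusted p = 0.000147). CTH was the only one of the 9 enzymes called higher. ASNS, which makes asparagine, had 9.82, 8.4 and 8.57 in PMA, against 9.85, 9.27 and 9.58 in vehicle. Its PMA array numbered 1 reached the vehicle range, and the difference of -0.64 (SE 0.33) missed the threshold (adjusted p = 0.171). With arrays numbered 2 and 3 alone it was -0.94 (adjusted p = 0.000173), and with a block for the replicate number -0.64 was called (adjusted p = 0.0163 by limma).

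The 4 amino acid transporters had a median difference of 0.03. SLC38A2, which carries small neutral amino acids, had 12.48, 12.2 and 12.33 in PMA, against 12.08, 11.97 and 12.05 in vehicle, and rose by 0.30 (SE 0.1, adjusted p = 0.0395). SLC7A1, which carries cationic amino acids, had 11.12, 10.58 and 10.32 in PMA, against 11.26, 11.1 and 11.27 in vehicle, and fell by 0.54 (SE 0.19, adjusted p = 0.0406), with groups that overlapped. Both calls were lost under many of the alternatives, SLC7A1 among them with the mean over its probe sets (-0.14, adjusted p = 0.501). SLC3A2 and SLC7A5 form the heavy and light chain of 1 exchanger. SLC3A2 differed by 0.44 (SE 0.17, adjusted p = 0.0608), with no overlap, and SLC7A5 by -0.25 (SE 0.17, adjusted p = 0.329). With a block for the replicate number SLC3A2 was called (adjusted p = 0.0361 by limma).

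DDIT4, an inhibitor of the growth kinase mTORC1, changed most among the remaining ATF4 targets. It had 12.28, 11.4 and 11.49 in PMA, against 10.1, 9.73 and 10.02 in vehicle, and rose by 1.77 (SE 0.19, 3.42-fold, adjusted p = 6.89e-06). STC2, a secreted glycoprotein, was dim, at percentile 31.5, and had 5.31, 4.82 and 5.18 in PMA, against 4.73, 4.39 and 4.68 in vehicle; its rise of 0.50 (SE 0.16, adjusted p = 0.0292) lost its call without any of 4 arrays, with adjusted p between 0.0519 and 0.133. SESN2, a sensor that also restrains mTORC1, differed by 0.16 (adjusted p = 0.556). CHAC1, which breaks down glutathione and is a typical target of the ATF4 and CHOP branch, had 6.04, 6.21 and 5.91 in PMA, against 6.44, 6.22 and 6.32 in vehicle, a difference of -0.27 (SE 0.11, adjusted p = 0.0769).

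ER chaperones and folding factors moved in 1 direction where they were called: 7 of 12 rose and 0 fell (median 0.42). DNAJB9, the ER co-chaperone ERdj4 and a known XBP1 target, had 10.42, 10.44 and 10.6 in PMA, against 8.37, 8.34 and 8.54 in vehicle. Its rise of 2.07 (SE 0.11, 4.2-fold, adjusted p = 6.44e-09) was the largest of the 45 genes. HSPA5, the main ER chaperone BiP, whose promoter is printed above, had 12.79, 12.65 and 12.75 in PMA, against 11.42, 11.93 and 11.87 in vehicle, and rose by 0.99 (SE 0.14, 1.99-fold, adjusted p = 5.32e-05). MANF, a secreted ER stress factor, had 11.03, 11.31 and 11.32 in PMA, against 10.04, 10.46 and 10.42 in vehicle, and rose by 0.91 (SE 0.14, adjusted p = 0.000123). For all 3 genes the groups were separated by more than the spread within either.

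DNAJC3, the ER co-chaperone known as p58IPK, had 10.97, 10.95 and 11.14 in PMA, against 10.19, 10.04 and 10.17 in vehicle, and rose by 0.89 (SE 0.12, adjusted p = 5.43e-05). CRELD2, an ER-resident ER stress gene, had 9.37, 9.9 and 9.89 in PMA, against 8.92, 9.1 and 9.08 in vehicle, and rose by 0.68 (SE 0.16, adjusted p = 0.00502). PDIA4, a disulfide isomerase, and HYOU1, a nucleotide exchange factor for BiP, each rose by 0.42 (SE 0.11, adjusted p = 0.00871 and 0.00645). None of these genes overlapped between the groups. The 5 chaperones that did not pass were CALR at 0.13, CANX at 0.11, HSP90B1 at 0.42, SDF2L1 at 0.25 and PDIA6 at -0.20, with adjusted p of 0.181 to 0.561. HSP90B1 was called once the fit held a block for the replicate number (adjusted p = 0.0157 by limma). The other probe sets of the lectin chaperone CANX gave 0.17, 0.33, 0.79 and 0.98, and the mean over all of them was called (0.48, adjusted p = 0.000425).

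The genes whose windows hold an ER stress element therefore had mixed outcomes: HSPA5 and CRELD2 rose, while XBP1, HSP90B1, CALR, CANX and PDIA6 did not pass without doxycycline. Of the second form, HYOU1 and HERPUD1 rose and SDF2L1 did not pass. Among ATF4 targets with a C/EBP-ATF element SLC7A1 fell, while ASNS, SLC3A2 and CHAC1 did not pass, and outside those targets PPP1R15B and HERPUD1 rose and CEBPG did not pass.

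All 3 measured genes of ER-associated degradation rose. SEL1L, the adaptor of the degradation complex, had 10.21, 9.87 and 10.02 in PMA, against 9.28, 9.12 and 9.01 in vehicle, and rose by 0.90 (SE 0.17, adjusted p = 0.000672). EDEM1, which marks misfolded glycoproteins for removal, had 10.18, 10.23 and 10.29 in PMA, against 9.28, 9.49 and 9.44 in vehicle, and rose by 0.83 (SE 0.13, adjusted p = 0.000181). HERPUD1, a membrane protein of the complex, had 10.96, 10.9 and 10.75 in PMA, against 10.23, 9.91 and 10.16 in vehicle, and rose by 0.77 (SE 0.13, adjusted p = 0.000314). No PMA array of these genes reached the vehicle range. A second, dimmer HERPUD1 probe set gave 0.21 (adjusted p = 0.327).

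With doxycycline PMA again raised ER and regulator genes: 22 of the 45 rose and 4 fell, where 32.5% of all genes were called, 13.0% higher and 19.5% lower. Groups did not overlap for 26 higher and 6 lower genes, beside 18.1% and 24.4% of all genes. The median was 0.40, against -0.01 over all genes. Called higher in both comparisons were 20 genes (44.4% of the 45), where 10.6% of all genes were. They made up 90.9% of those called with doxycycline and 95.2% of those called without, and over all genes these shares were 81.7% and 83.4%. PSAT1, PHGDH, SHMT2 and CBS were called lower in both (8.89% of the 45), where 16.8% of all genes were. The comparisons use different arrays and share the estimate of the spread. Same-numbered arrays with and without doxycycline also deviated together from their group means, so the comparisons are not independent repeats. XBP1, at 10.02, 9.95 and 9.87 in PMA with doxycycline and 9.57, 9.26 and 9.7 in vehicle with doxycycline, rose by 0.44 (adjusted p = 0.0192), a call that was lost under 5 alternatives, among them the mean over its probe sets (0.13, adjusted p = 0.494). NUPR1, at 7.78, 6.74 and 6.88 against 6.26, 5.89 and 5.97 in vehicle with doxycycline, rose by 1.09 (SE 0.29, adjusted p = 0.00938). Neither SLC38A2 (0.15, adjusted p = 0.331) nor SLC7A1 (-0.49, adjusted p = 0.0576) passed.

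The genes with the largest rise and the largest fall among the 45 were the same as without doxycycline. DNAJB9 had 10.93, 10.94 and 10.85 in PMA with doxycycline, against 8.69, 8.44 and 8.48 in vehicle with doxycycline, a rise of 2.37 (SE 0.11, 5.17-fold, adjusted p = 1.5e-09). PHGDH had 9.67, 9.35 and 9.31 in PMA with doxycycline, against 10.88, 11.23 and 10.88 in vehicle with doxycycline, and fell by 1.55 (SE 0.19, 2.93-fold lower, adjusted p = 1.5e-05). For DNAJB9 and PHGDH the groups again lay wholly apart. ATF4 had 12.92, 12.61 and 12.54 in PMA with doxycycline and 12.63, 12.64 and 12.7 in vehicle with doxycycline, a difference of 0.03 (95% interval -0.27 to 0.33, adjusted p = 0.899). The ER lists again had 10 of 15 genes higher and 0 lower (median 0.68), and the ATF4 targets 3 higher and 4 lower of 17 (median -0.29).

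Further genes of the same pathways that are outside the 46 were also counted in PMA without doxycycline. Of 23 other integrated stress response genes 7 rose and 7 fell (30.4% each, median -0.04). Over all genes 12.7% rose and 18.9% fell (median 0.01). ATF3, a stress-induced repressor, averaged 10.15 ± 0.11 in PMA and 6.25 ± 0.24 in vehicle (SD, n = 3 each), a rise of 3.90 (SE 0.14, adjusted p = 1.65e-10 by limma). That rise was 2.02 with the mean over its probe sets and 1.97 without those that may share sequence with other transcripts, both called. GDF15, a secreted stress hormone, rose by 5.65 (SE 0.61, adjusted p = 6.32e-06), but the difference was 2.24 with the mean over its probe sets and 0.34 (adjusted p = 0.216) once those that may share sequence were left out. ALDH18A1, of proline synthesis, fell by 1.02 (adjusted p = 1.65e-06) and PCK2, mitochondrial PEP carboxykinase, fell by 0.61 (adjusted p = 0.00264). Of 29 other unfolded protein response genes 12 rose and 2 fell (41.4% and 6.9%, median 0.30). Among those that rose were SELENOS at 1.46 (adjusted p = 3.89e-07) and ERP44 at 1.05 (adjusted p = 7.18e-05), both proteins of ER quality control. ERP44 gave 0.51 with the mean over its probe sets and 0.41 (adjusted p = 0.0379) without shared-sequence probe sets. The 2 that fell were CREB3L2, a membrane-bound transcription factor, by 0.45 (adjusted p = 0.0227) and the disulfide isomerase P4HB by 0.42 (adjusted p = 0.00706). P4HB lost its call with arrays numbered 2 and 3 alone (-0.30, adjusted p = 0.0657). CREB3L2 lost its call under 6 alternatives, among them without the PMA array numbered 3 (-0.27, adjusted p = 0.105), without the vehicle array numbered 1 (adjusted p = 0.0728) or 3 (adjusted p = 0.0623), and under cyclic loess (-0.34, adjusted p = 0.104), and gave -1.36 (adjusted p = 9.51e-06) without shared-sequence probe sets.

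With doxycycline, which switches on the hairpin, limma called 0 of the 45 genes in either agent at an adjusted p under 0.05. In PMA-treated cells limma called 0.00506% of all genes, and at an unadjusted p under 0.05 it counted 4 of the 45 (8.89%), where it counted 6.14% of all genes. These tests are unpaired; with a block for each of the 6 same-numbered pairs 53 genes were called over all genes, and 0 of the 45. The 4 at an unadjusted p under 0.05 in the unpaired limma fit were DNAJB9, HERPUD1 and EIF2AK3 on the higher side and CBS on the lower. DNAJB9, at 10.93, 10.94 and 10.85 with doxycycline and 10.42, 10.44 and 10.6 without, differed by 0.42 (SE 0.11, 95% interval 0.19 to 0.65, unadjusted p = 0.0016, adjusted p = 0.436 by limma), by 0.51, 0.49 and 0.26 in the pairs of arrays with the same number. CBS, at 6.3, 6.8 and 6.45 with doxycycline and 7.15, 7.1 and 6.8 without, differed by -0.50 (SE 0.16, adjusted p = 0.616), and HERPUD1, at 11.09, 11.17 and 11.31 with and 10.96, 10.9 and 10.75 without, by 0.32 (SE 0.13, adjusted p = 0.768). The DNAJB9 and HERPUD1 groups did not overlap, whereas a CBS array with doxycycline and one without both read 6.8.

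In PMA-treated cells 6 of the 45 genes were higher with doxycycline without overlap (DNAJB9, HSPA5, DNAJC3, PDIA6, HYOU1 and HERPUD1), where 4.83% of all genes were, and 2 were lower (SLC3A2 and SLC38A2), where 5.9% were. All 6 belong to the ER lists. HSPA5 had 13.06, 12.98 and 12.99 with doxycycline and 12.79, 12.65 and 12.75 without, a difference of 0.28 (SE 0.14, adjusted p = 0.817). Over the 45 genes 16 were higher in 3 of 3 pairs and 5 lower, where 14.1% and 18.5% of all genes were, and 10 of the 12 chaperones were among the 16. The median of the 15 ER genes was 0.15, against -0.01 over all genes. These are descriptions of small differences of which 0 passed the test, and genes read on the same arrays are not independent.

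In vehicle-treated cells 0 of the 45 passed at an unadjusted p under 0.05 either, where 2.58% of all genes did, and 0.0% of all genes were called. HYOU1, at 8.85, 9.03 and 8.68 with doxycycline and 8.67, 8.63 and 8.66 without (difference 0.20, SE 0.11, adjusted p = 1), was the 1 gene higher without overlap, where 5.08% of all genes were. PSPH, at 9.2, 9.29 and 9.46 with and 9.46, 9.57 and 9.66 without, was the 1 gene lower (difference -0.24, adjusted p = 1) on rounded values that meet at 9.46, where 3.47% were. Higher in 3 of 3 pairs were 6 of the 45 genes, 4 of them chaperones, and 6 were lower, where 16.7% and 13.5% of all genes were. The interaction, the difference between the PMA effects with and without doxycycline, ran from -0.41 for CBS to 0.47 for NUPR1 (SE 0.22 and 0.41); 0 of the 45 passed, also at an unadjusted p under 0.05, where 2.62% of all genes were below it. For DNAJB9 doxycycline differed by 0.42 in PMA and 0.12 in vehicle, a difference whose adjusted p was 1.

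**Figure D3:**
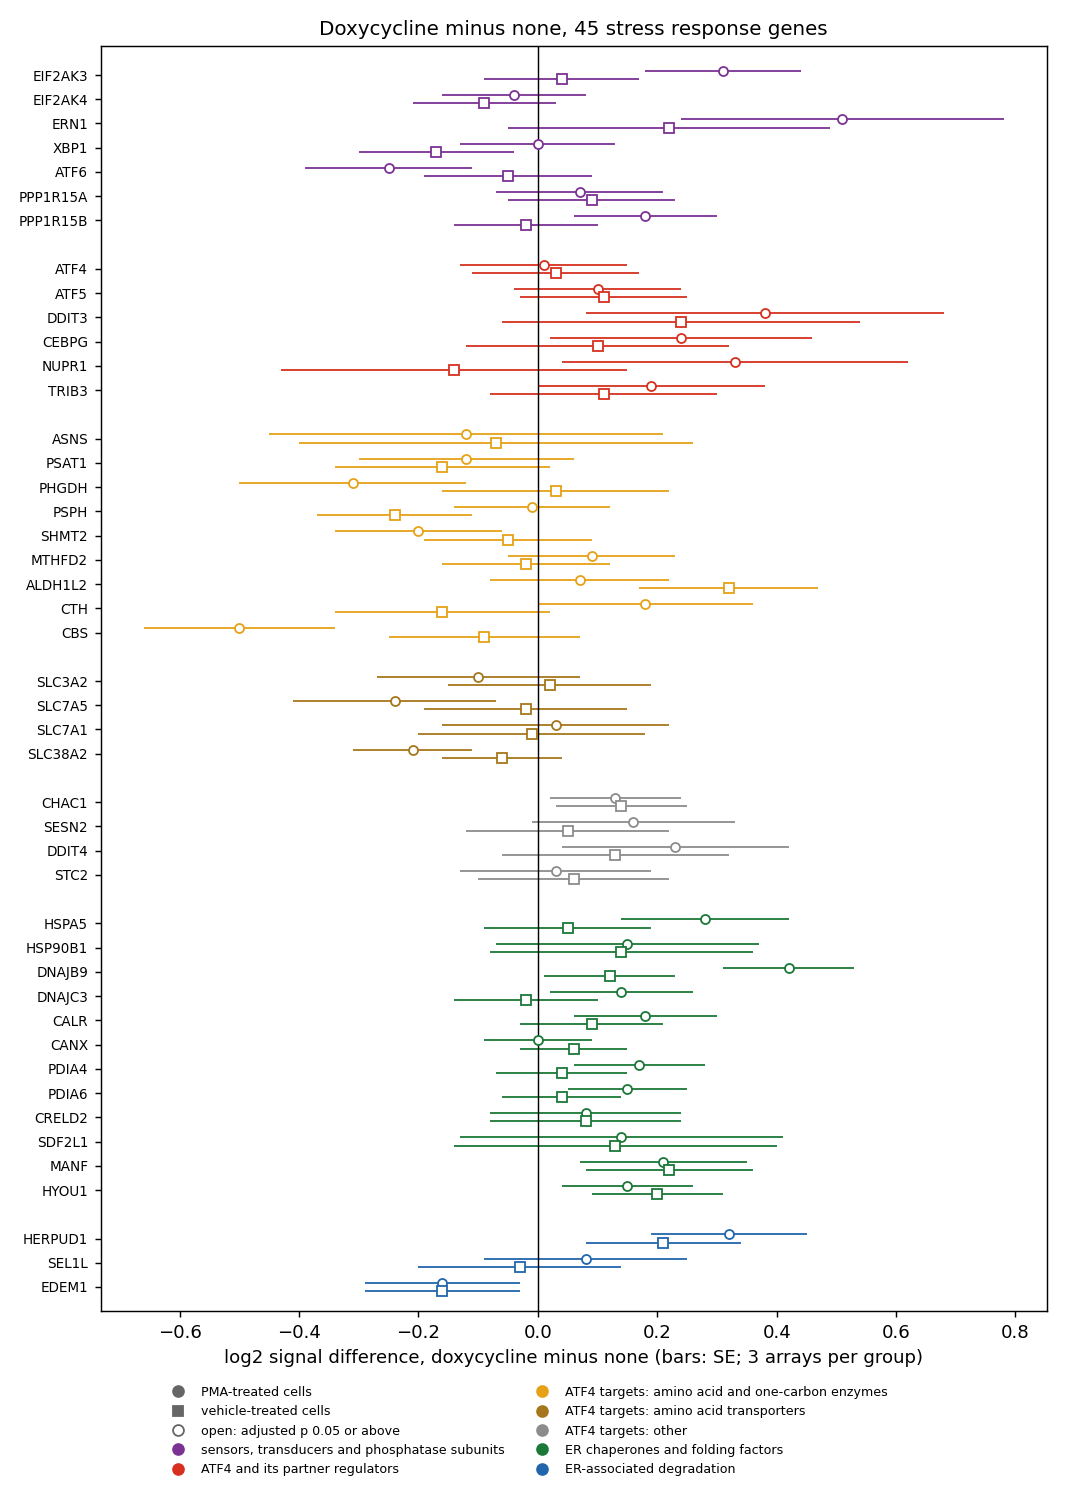
Difference in log2 signal between cultures with and without doxycycline for the 45 genes, with circles for PMA-treated and squares for vehicle-treated cells and bars for the SE (3 arrays per group); all points are open because 0 of 45 passed an adjusted p of 0.05. The differences run from -0.50 to 0.51 in PMA and from -0.24 to 0.32 in vehicle.

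The arrays numbered 1 differed from the others of their groups in several of these genes. ERN1, DDIT3, NUPR1, ASNS, SLC38A2, STC2, HSP90B1 and SEL1L were highest on array 1 in 4 of 4 groups (17.8% of the 45), where 6.7% of all genes were, and CRELD2, SDF2L1 and EDEM1 were lowest (6.67%), where 7.6% of all genes were. Array 1 exceeded the mean of arrays 2 and 3 by 0.74 on average for DDIT3, 0.74 for ASNS and 0.69 for NUPR1, and SDF2L1 lay 0.63 below, at a difference of -0.63. In some genes array 1 stood higher mainly with PMA. For CEBPG it lay 0.77 above that mean in PMA and 0.74 in PMA with doxycycline. In vehicle the value was -0.06, and 0.08 with doxycycline. For TRIB3 these values were 0.80, 0.41, 0.15 and -0.06, for ATF4 0.48, 0.34, -0.02 and -0.04, and for SLC7A1 0.67, 0.51, 0.08 and 0.01. EIF2AK4 did not do so, at 0.07, 0.24, 0.09 and 0.19, nor did HSP90B1, at 0.43, 0.50, 0.39 and 0.47. A block for the replicate number takes 1 shift for all groups and cannot remove such a difference. The same 4 arrays had the high ACTB differences given above, and the part of this in the results was not tested. With arrays numbered 2 and 3 alone, PMA raised 21 and lowered 7 of the 45 genes in cultures with doxycycline and likewise 21 and 7 in cultures without. The share of all genes called in that fit is not given here. NUPR1 was then called without doxycycline (0.53, adjusted p = 0.0185), whereas PPP1R15B (0.29, adjusted p = 0.118) was not.

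**Figure D4:**
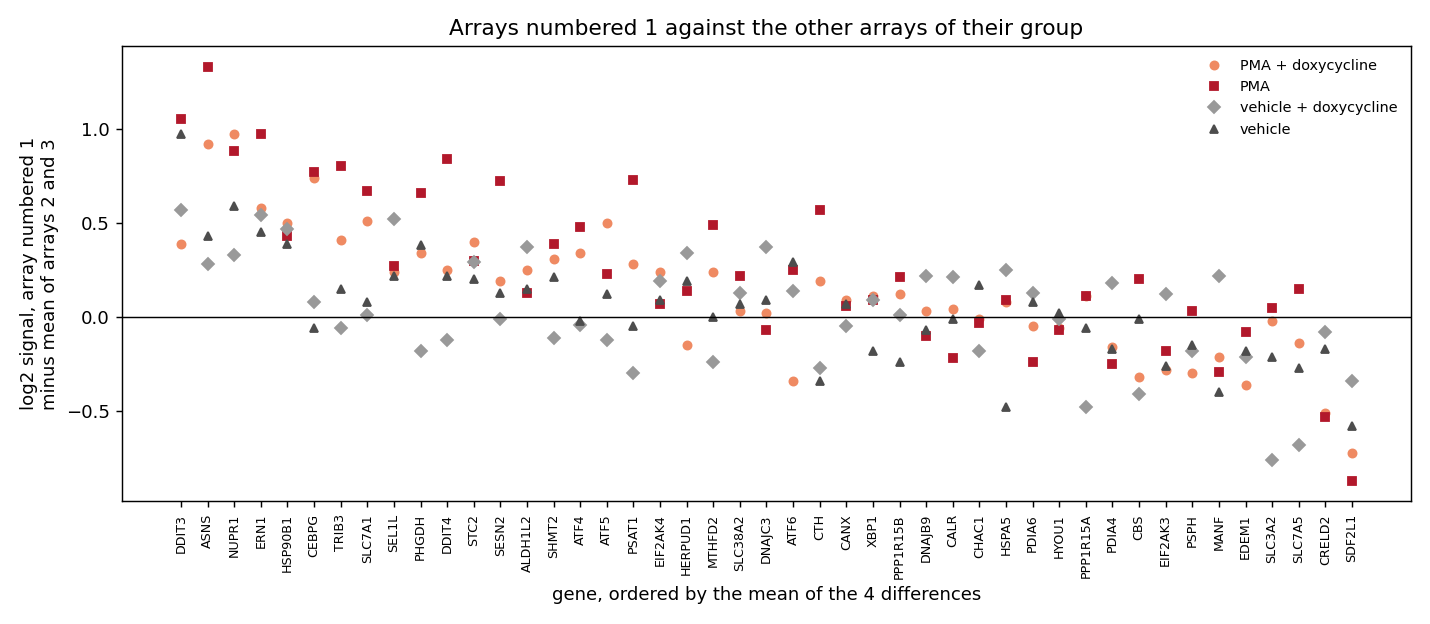
Log2 signal of the array numbered 1 minus the mean of arrays 2 and 3 of the same group, for each of the 45 genes, with 1 point per group. DDIT3, ASNS and NUPR1 lie above 0 in all 4 groups, by 0.74, 0.74 and 0.69 on average, and SDF2L1 below, at -0.63.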

How the data were processed

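Total RNA was hybridised to 12 Affymetrix arrays of type HG-U133 Plus 2.0. The deposited values are log2 signals made by the authors with RMA, per the submitters' processing notes; nothing else about this step was given in the sources used. No further scaling was applied. Of 54675 probe sets, 62 were controls, 41091 paired with 1 gene, 1801 with several and 11721 with none in the annotation used; symbols of 41037 were updated by Entrez number and 54 kept. The probe set with the highest mean stood for each of 19775 genes, dim genes included.

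Group means over all 12 arrays were fitted in limma 3.58.1 (lmFit, eBayes; R 4.3.3). Tests were two-sided, and calls needed an adjusted p (Benjamini-Hochberg over all genes) under 0.05. With 3 arrays per group the number of arrays limits the precision, and where replicates are not separate cultures the p-values measure technical spread only. Same-numbered arrays with and without doxycycline deviated together from their group means (r = 0.637, 0.288 and 0.324 in PMA and 0.57, 0.254 and 0.308 in vehicle). They were therefore treated as pairs in an alternative fit. The doxycycline SEs, intervals and p-values of single genes are from the unpaired fit. Paired p-values of single genes are not given here. Between PMA and vehicle r was 0.158, -0.0105 and 0.155, and with doxycycline 0.196, 0.0708 and 0.059. Not every number exceeded 0.1, so these were not taken as paired, although arrays numbered 1 share deviations. The alternatives were replicate blocks, leaving out arrays, probe set choice, a dim-gene filter at 5, cyclic loess, an intensity trend and fits on 2 groups. The fit was tested on simulated data.

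All 46 genes and ZXDC are named, with the 2 largest called rises and falls of each list of other pathway genes. The genes and lists were chosen with earlier results of these data known. Promoter windows are from RefSeq; NUPR1, PSPH, SHMT2 and ALDH1L2 had none.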

Additional observations from a re-analysis of the deposited data

How the results depend on the processing

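Of the 26 genes called with PMA in each comparison, 22 with doxycycline and 19 without kept their call under all 20 alternatives run for each that measured them. Lost under at least 1 were HERPUD1, HYOU1, STC2 and XBP1 with doxycycline, and DDIT3, ERN1, HERPUD1, PPP1R15B, SLC38A2, SLC7A1 and STC2 without. Leaving out 1 array at a time gave 20 to 22 genes higher and 4 to 6 lower with doxycycline, and 18 to 22 and 4 to 6 without. Over all genes these fits called 5500 to 6671 of 19775 with doxycycline and 5268 to 6534 without. The number lower with doxycycline was 4, and became 8 with a replicate block, 7 with arrays 2 and 3 alone and 7 without dim genes. The share of all genes called lower in those 3 fits is not given here, so the change in number cannot be read as one of these genes. The cause was not tested. The median of the 15 ER genes was 0.68 in both, 0.50 without doxycycline with the mean over probe sets, and 0.63 to 0.85 with doxycycline when 1 array was left out, 0.85 without the PMA and doxycycline array numbered 1. The median of the 17 ATF4 targets without doxycycline was -0.12, and -0.25 without dim genes and -0.27 without probe sets that may share sequence. PSPH was not called in the main fit, at 0.26 with and 0.02 without doxycycline. It was called lower with the mean over probe sets (-0.40 with and -0.53 without doxycycline) and without probe sets that may share sequence (-1.0 and -0.89). EIF2AK4 turned to 0.90 with doxycycline in that second setting, which uses other probe sets and left 33 of the 45 genes.

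Same-numbered arrays with and without doxycycline were treated as paired in an alternative fit only. With a replicate block over all groups PMA raised 23 genes and lowered 8 with doxycycline, and raised 24 and lowered 6 without. The share of all genes called under that block is not given here, so these counts have no such share beside them. The block added calls for NUPR1 (0.63, adjusted p = 0.00291), HSP90B1 (0.42, adjusted p = 0.0157), ASNS (-0.64, adjusted p = 0.0163) and SLC3A2 (0.44, adjusted p = 0.0361) without doxycycline, and for HSP90B1, ASNS, ALDH1L2, SLC7A5 and SLC7A1 with it. For doxycycline 0 of the 45 genes were called under any of 21 alternatives in PMA or vehicle, or for the interaction under any of 20, blocks included. Over all genes doxycycline in PMA gave 1 call, and 2 with the replicate block, 53 with a block for each of 6 pairs, 9 with arrays 2 and 3 alone, 0 with the mean over probe sets, without shared-sequence probe sets or on 2 groups alone, and 0 to 1 with 1 array left out. The interaction gave 0, and 1 with either block and 0 to 1 with 1 array left out. Cyclic loess moved the median of all genes by less than 0.1, but single members moved more. Without doxycycline 2 gained a call under it, XBP1 (0.40, adjusted p = 0.0245 by limma) and SLC3A2 (0.58, adjusted p = 0.0156). SLC7A1 lost its call (-0.43, adjusted p = 0.104). With doxycycline 3 gained a call, PSPH (0.40), SLC3A2 (0.48) and CALR (0.34). Dim genes (ALDH1L2, STC2) and spreads such as that of ASNS limit what 3 arrays per group can show.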
